A study of Homo sapiens with 2 samples.

Results

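The peaks described here are the ATF1 peaks that lay in an exon of their assigned gene with the summit within 1000 bp of either listed end of that gene, called exonic gene-end peaks below. The deposited peak table held 15064 peaks, each assigned to a different gene. Of these, 6559 were classed as exonic by the authors, and 4396 of the exonic peaks met the distance limit (67.0%, exact 95% binomial interval 65.9 to 68.2). They made up 29.2% of all listed peaks, and 4220 of them (96.0%) were assigned to protein-coding genes. The choice used the class and the positions, and used no measure of peak strength.

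The study mapped binding of ATF1 carrying a 3xFlag tag in HCT116 cells, an established human colon carcinoma line. It made 1 chromatin immunoprecipitation (ChIP) library with an antibody to the tagged protein and 1 input DNA library, for which no table was used here. The tagged protein was introduced into the cells, and the sources used here do not give its level beside that of the cells' own ATF1, nor whether the cells were a clone. Neither library had a replicate, so the values describe this ChIP library. The intervals reflect only the number of peaks or genes counted and, for medians, their spread.

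ATF1 is a basic leucine zipper protein that binds DNA as a dimer with itself or with its relatives CREB1 and CREM. The palindrome it recognises, the cAMP response element (CRE), is TGACGTCA, and one side of it, TGACG, is bound more weakly. Protein kinase A phosphorylates these factors after a rise in cAMP, and the phosphorylated form recruits the coactivators CREBBP and EP300. In the human genome many CREs lie close to transcription starts, often within CpG islands, so the first exon of a gene and the promoter just before it are a usual place to find such a factor.

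The stretches of promoter that carried the clearest matches are shown first, since the strength of the exonic gene-end peaks is set against them below. All come from the RefSeq promoter table of GRCh38.p14, which runs from 250 bp before to 50 bp after each start, and are read in the direction of transcription. Capitals mark the full CRE, TGACGTCA, in CDADC1 (chr13:49247834-49247901, plus strand), AASDH (chr4:56387492-56387549, minus strand), CENPW (chr6:126339973-126340040, plus strand), METTL4 (chr18:2571506-2571568, minus strand), LARP7 (chr4:112636893-112636937, plus strand), AP2B1 (chr17:35587229-35587296, plus strand), MAGOH (chr1:53238519-53238580, minus strand), RPL18 (chr19:48619198-48619265, minus strand), CCNA2 (chr4:121823927-121823994, minus strand) and BIRC2 (chr11:102347196-102347225, plus strand).
CDADC1: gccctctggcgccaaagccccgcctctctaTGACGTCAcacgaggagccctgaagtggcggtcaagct
AASDH: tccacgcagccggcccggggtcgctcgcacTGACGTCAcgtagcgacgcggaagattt
CENPW: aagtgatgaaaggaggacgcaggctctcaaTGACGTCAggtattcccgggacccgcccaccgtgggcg
METTL4: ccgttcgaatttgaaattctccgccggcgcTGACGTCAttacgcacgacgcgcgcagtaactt
LARP7: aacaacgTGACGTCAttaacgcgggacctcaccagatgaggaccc
AP2B1: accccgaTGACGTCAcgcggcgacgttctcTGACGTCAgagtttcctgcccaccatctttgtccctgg
MAGOH: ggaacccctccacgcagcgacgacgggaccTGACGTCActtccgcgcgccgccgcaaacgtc
RPL18: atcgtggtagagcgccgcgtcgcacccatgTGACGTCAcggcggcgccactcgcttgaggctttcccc
CCNA2: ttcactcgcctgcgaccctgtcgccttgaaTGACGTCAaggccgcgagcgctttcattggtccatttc
BIRC2: gccgggcgcgcTGACGTCAtcgtgCGTCAg
In BIRC2 the capitals also mark a core, CGTCA, which is TGACG on the other strand. AP2B1 is shown because its promoter held 2 full CREs, CCNA2 as a textbook CRE gene, and BIRC2 because its CRE reaches the start itself.

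Several of the strongest peaks stood at promoters that held only the core. Capitals mark the core on either strand in YIPF6 (chrX:68498956-68499020, plus strand), C1D (chr2:68063005-68063047, minus strand), CCNH (chr5:87412931-87412967, minus strand), TFIP11 (chr22:26512474-26512530, minus strand) and FANCD2 (chr3:10026362-10026426, plus strand).
YIPF6: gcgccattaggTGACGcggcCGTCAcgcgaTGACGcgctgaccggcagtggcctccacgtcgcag
C1D: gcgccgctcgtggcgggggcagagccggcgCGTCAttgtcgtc
CCNH: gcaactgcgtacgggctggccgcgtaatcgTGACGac
TFIP11: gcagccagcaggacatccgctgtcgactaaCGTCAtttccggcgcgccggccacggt
FANCD2: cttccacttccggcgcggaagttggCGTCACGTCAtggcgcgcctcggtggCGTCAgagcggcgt
Strong peaks also occurred where no core was found. The last 100 bases before the start are shown for ZNF614 (chr19:52028380-52028479, minus strand) and NRAS (chr1:114716772-114716871, minus strand), 2 members whose 300-base promoters held no TGACG on either strand.
ZNF614: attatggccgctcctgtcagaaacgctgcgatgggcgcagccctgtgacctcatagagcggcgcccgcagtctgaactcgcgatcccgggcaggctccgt
NRAS: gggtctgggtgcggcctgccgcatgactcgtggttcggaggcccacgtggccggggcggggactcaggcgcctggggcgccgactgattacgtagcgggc

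Exonic gene-end peaks were stronger than the exonic peaks deeper in genes. The median fold enrichment, the authors' ratio to an unspecified background, was 7.54 in the 4396 members (quartiles 5.32 and 11.6, interval of the median 7.37 to 7.72) and 6.27 in the 2163 other exonic peaks (quartiles 4.76 and 8.11, interval 6.11 to 6.39). The ratio of the medians was 1.20. Peaks of 1 library are not independent samples, so the intervals are no test of this difference. At least 10-fold enrichment was reached by 1434 members (32.6%) and 297 other exonic peaks (13.7%), against 23.9% of all listed peaks. The difference was larger in tags, the reads counted in a peak: the median was 213 in members and 87 in the other exonic peaks. Peak length differed less, with medians of 1603 bp in members and 1394 bp in the others, so that tags per kb of peak had medians of 124 and 56.3 in the same order. Within the members, tags followed peak length (Spearman rho 0.72 across peaks, which share 1 library) and hardly followed fold enrichment (rho 0.14).

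Against the other positions near genes, the members were nearest the upstream peaks in fold enrichment, and in tags they lay between the upstream and the intronic gene-end peaks. Upstream peaks had a median fold enrichment of 7.81 and 275 tags (n = 2996), and those with the summit within 200 bp of the gene had 8.47 and 287 tags (n = 2214). Intronic peaks within 1000 bp of a gene end were lower than the members, at 6.76-fold and 173 tags (n = 1632). Downstream peaks had the fewest tags of these classes, with a median of 65 and a fold enrichment of 6.64 (n = 407).

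Most of the members sat at the start of transcription. The strand was known for the 3496 members matched to a reference promoter (79.5%), and 3181 of these had the summit nearer the start than the end (91.0%). Genes of 2 kb or less put every point within 1000 bp of an end, and 156 members (3.55%) lay in such genes. In longer genes 3095 of 3391 members were nearer the start (91.3%, interval 90.3 to 92.2), and 296 were nearer the end (8.73%). These are called start members and end members below.

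The start members were the stronger of the pair of groups. Their median fold enrichment was 8.09 (quartiles 5.63 and 12.6, interval 7.90 to 8.36), against 6.04 in the end members (quartiles 4.46 and 7.54, interval 5.64 to 6.47). The median number of tags was 228 in start members and 82.5 in end members. At least 10-fold enrichment was reached by 1142 start members (36.9%) and 22 end members (7.43%).

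**Figure D1:**
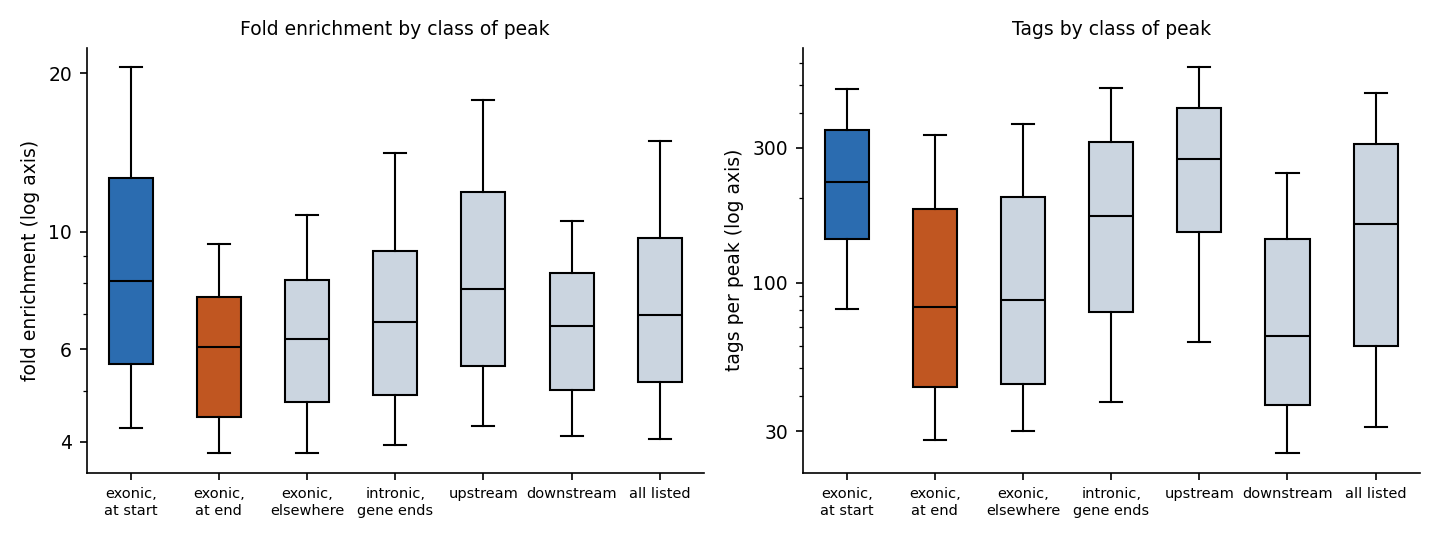
Fold enrichment (left, log axis) and tags per peak (right, log axis) by class of peak; lines are medians, boxes quartiles and whiskers the 10th and 90th percentiles. The members are split into those at the start (median 8.09-fold, 228 tags) and at the end of transcription (6.04-fold, 82.5 tags), and only those at the start lie above the exonic peaks elsewhere (6.27-fold, 87 tags).

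**Figure D2:**
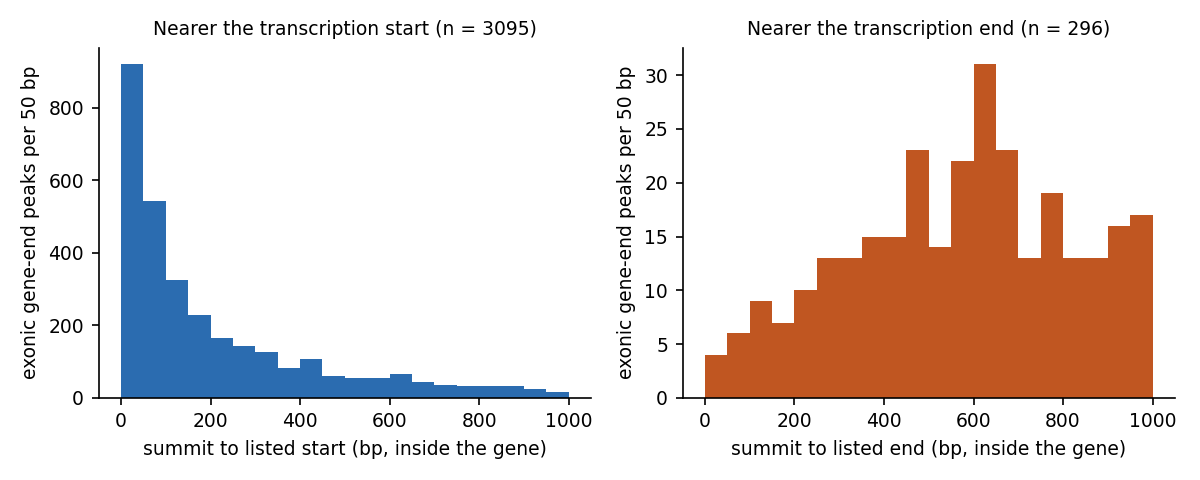
Number of exonic gene-end peaks per 50 bp of distance between the summit and the listed gene end, for the 3095 members nearer the start (left) and the 296 nearer the end (right) in genes over 2 kb. The start members crowd against the listed start (median 111 bp), and the end members lie mostly farther inside (median 591.5 bp).

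The summits of the start members hugged the start site. Their median distance inside the listed start was 111 bp (quartiles 38 and 297), and measured to the nearest start of the reference promoter table it was 3 bp downstream (quartiles -46 and 75). Within 100 bp of a reference start lay 2091 of them (67.6%), and 1487 (48.0%) had the summit before that start. The class of exon follows the authors' gene model, in which 1 start is listed for each gene. The peak itself crossed the listed start in 2948 start members (95.3%), reaching a median of 566 bp upstream and 1021 bp downstream of it.

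Strength was highest next to the start. Start members with the summit within 50 bp of the listed start had a median fold enrichment of 9.20 (n = 932), those at 51 to 100 bp 8.46 (n = 538), and those at 101 to 250 bp 7.70 (n = 715). Beyond that the medians were 7.15 at 251 to 500 bp (n = 519) and 7.20 at 501 to 1000 bp (n = 391). The share at or above 10-fold was 44.6% in the nearest group and 30.4% in the farthest.

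The 1000 bp limit cut through a continuous range. Just inside it were C9orf47 (999 bp, 3.07-fold, 160 tags), ZBTB10 (999 bp, 3.22-fold, 370 tags) and CCDC62 (1000 bp, 6.97-fold, 146 tags). Just outside were ENTHD2 (1001 bp, 4.18-fold, 504 tags), HP1BP3 (1004 bp, 3.88-fold, 450 tags) and CARS2 (1005 bp, 4.97-fold, 165 tags).

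The full CRE was concentrated in the strongest start members. Over all 35116 reference promoters 1.85% held TGACGTCA, which reads the same on both strands. The share was 2.26% over the 22199 protein-coding promoters, the closer background, since 96.0% of members were assigned to protein-coding genes. In the start members 131 of 3095 promoters held it (4.23%, interval 3.55 to 5.00), in the end members 3 of 296 (1.01%), and in the other exonic peaks 36 of 1685 (2.14%). Upstream peaks had a share of 4.48% (97 of 2165). The promoter searched was that of the assigned gene, not the sequence under the peak. In 267 of the 296 end members no reference start lay within 1000 bp of the summit. In 1176 of the 1685 other exonic peaks no reference start of the gene itself lay that near. The shares of these peaks thus do not show whether the sequence under them held a CRE. Split into 5 equal groups of 619 by fold enrichment, weakest to strongest, the start members held a full CRE in 4, 6, 5, 25 and 91 promoters. The strongest group, above 14.29-fold, thus had a share of 14.7% (interval 12 to 17.7), against 0.65, 0.97 and 0.81% in the 3 weakest groups.

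The core differed over more of the same 5 groups. TGACG on either strand, which includes every full CRE, was found in 24.6% of all promoters, 27.9% of protein-coding promoters and 1248 start members (40.3%). From the weakest to the strongest group the share was 23.4, 25.04, 35.2, 51.9 and 66.1%. Of these, 23.4 and 25.04% lay below the share of protein-coding promoters. The longer TGACGT, also counted on both strands and within the full CRE, had shares of 4.04, 4.20, 8.56, 15.99 and 33.9%. It was found in 7.98% of all promoters and 8.94% of protein-coding promoters. Ranking by tags, which hardly follow fold enrichment, gave a full CRE in 12.6% of the fifth of start members with most tags and in 1.62% of the fifth with fewest.

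**Figure D3:**
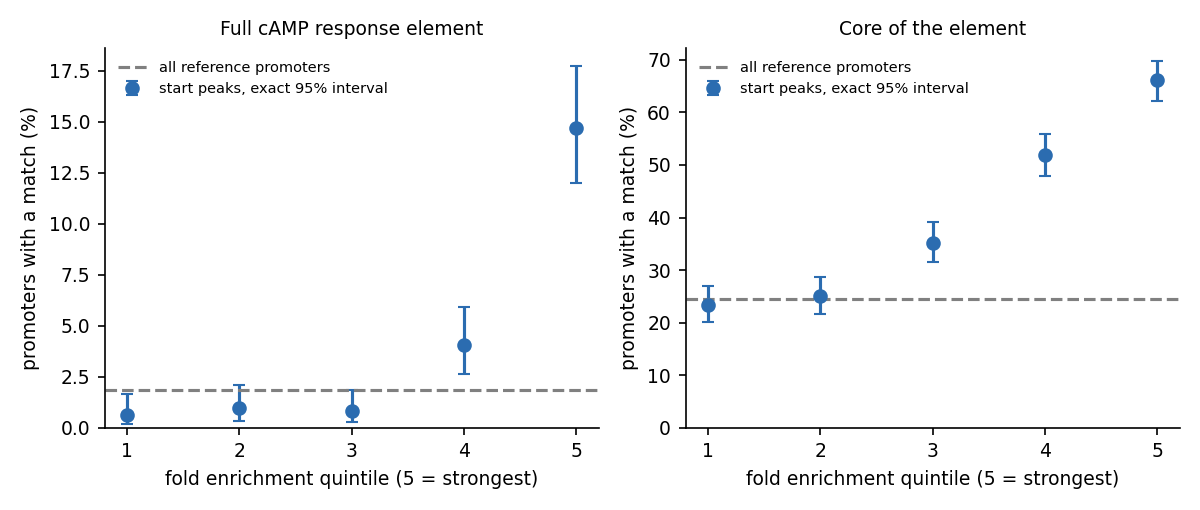
Share of promoters holding the full CRE and its core in the 5 fold-enrichment groups of the start members (619 each), with exact 95% intervals; the dashed lines are all reference promoters (1.85% and 24.6%). The full CRE lies above its dashed line in the 2 strongest groups (4.04 and 14.7%). The core does so from the middle group on (35.2, 51.9 and 66.1%). Protein-coding promoters alone had shares of 2.26% (full CRE) and 27.9% (core).

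Read the other way, fold enrichment was higher with a longer match. Start members with a full CRE had a median of 18.5-fold (n = 131, interval 16.1 to 21.7) and 429 tags, and 115 of them reached 10-fold (87.8%). Those whose best match was TGACGT had 13.1-fold and 310.5 tags (n = 282), and those with TGACG alone 9.56-fold and 260 tags (n = 835). Those with no core had 6.90-fold (n = 1847, interval 6.75 to 7.11) and 205 tags, and 454 reached 10-fold (24.6%). More cores went with higher values: the medians were 9.5 with 1 core (n = 855), 14.2 with 2 (n = 287) and 16.5 with 3 or more (n = 106). A full CRE counts as 2 cores, 1 on each strand.

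**Figure D4:**
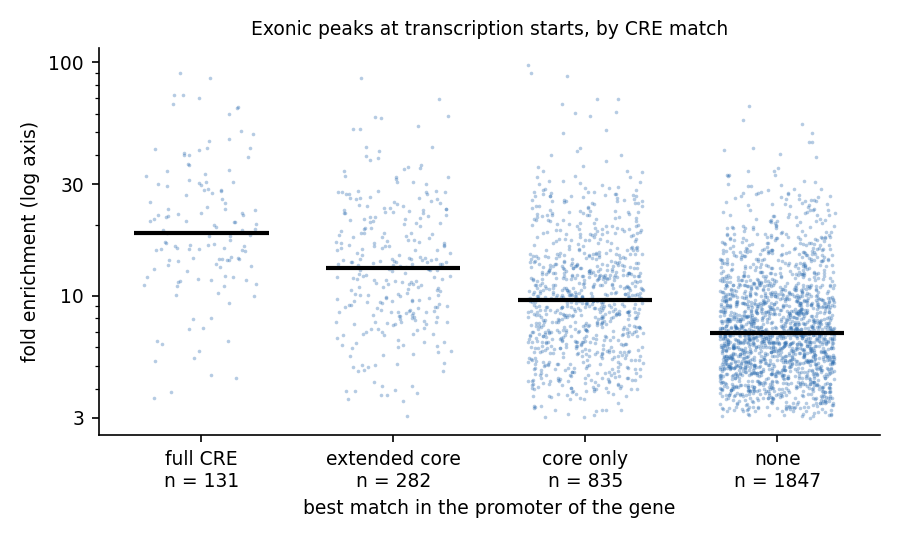
Fold enrichment (log axis) of the start members by the best CRE match in the promoter of the gene; each point is a peak and each bar a median. The medians step down from the full CRE (18.5) over TGACGT, labelled extended core (13.1), and TGACG, labelled core only (9.56), to no core (6.90), and the groups overlap widely.

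The summit lay close to the CRE. The distance from the centre of the nearest full CRE to the summit had a median of 24.5 bp (quartiles 9.5 and 83.5) in the 131 start members with one, and was at most 50 bp in 83 of them (63.4%) and at most 250 bp in 128 (97.7%). Where the summit was itself inside the promoter window, the median distance was 18.5 bp to a full CRE, 35 bp to a core, 37.5 bp to an SP/KLF motif, 45 bp to an ETS motif, 68 bp to an NF-Y motif and 145 bp to an AP-1 motif. Among these motifs the full CRE lay nearest, in 115 peaks of which 103 reached 10-fold. Among peaks of at least 10-fold the medians were 18.5 bp for the full CRE and 26.5 bp for the core. They were 38.5 bp for SP/KLF, 46 bp for ETS, 63 bp for NF-Y and 148.5 bp for AP-1. Full CREs and summits both lay mostly near the start, and the distance that this alone would give was not computed. The CRE centre stood at a median of -39.5 bp from the start in these members and at -56.5 bp in all promoters with one. In BIRC2 the CRE covered the bases from -7 to the start itself, and the summit lay at -3.

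Motifs of other promoter factors followed different courses, each counted on both strands. The ETS motif CCGGAAG was found in 22.6% of start members and 10.3% of all promoters, and its share was 29.1% in the strongest group and 13.2% in the weakest. The YY1 motif AAGATGG likewise had 8.66% in start members and 5.84% in all promoters, with 12.3% in the strongest group and 4.85% in the weakest. The SP/KLF motif GGGCGG was common throughout, at 72.7% of start members and 45.0% of all promoters, and was less frequent in the strongest group (68.0%) than in the weakest (76.6%). The NF-Y motif CCAAT stood at 34.9% of start members and 34.6% of all promoters, but its share was 39.1% in the strongest group and 25.5% in the weakest. Between these its share peaked at 43.1% in the next to strongest group, and the median fold enrichment was 9.15 with the motif and 7.50 without. The E-box CACGTG was found in 10.7% of start members and 7.26% of all promoters. The TATA motif TATAAA (3.81 and 11.5%) and the AP-1 motif TGANTCA (4.26 and 7.71%) were rarer in start members than in all promoters. In protein-coding promoters alone the shares were 12.8% for ETS, 6.04% for YY1, 56.3% for SP/KLF and 34.7% for NF-Y. They were 8.34% for the E-box, 9.47% for TATA and 6.15% for AP-1. AP-1 is the FOS and JUN dimer, also a basic leucine zipper factor. Its site has a single base pair between TGA and TCA, where the CRE has CG.

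Base composition moved with some of these shares, and its part in them was not tested. The promoters of start members had a median of 26 CpG, against 14 in all promoters and 21 in promoters of protein-coding genes. The median was 26 in the strongest group and 28 in the weakest, and the median GC content was 62.7% in the strongest and 68.7% in the weakest. Among start members with 25 to 34 CpG, a full CRE was found in 47 of 275 of the strongest group (17.1%). In the weakest group it was found in 1 of 203 (0.49%). All start members with as many CpG had 5.38% (interval 4.14 to 6.86), and all protein-coding promoters 3.70%. With 15 to 24 CpG the same shares were 4.23% (interval 3.09 to 5.64) and 2.59%. With 35 to 99 CpG they were 3.599% (interval 2.295 to 5.35) and 3.04%. With 0 to 14 CpG they were 1.06% (interval 0.22 to 3.07) and 0.81%. With 35 to 99 and with 0 to 14 CpG the interval included the protein-coding share. In the strongest and weakest groups the shares were 11.4 and 1.18% with 15 to 24 CpG. They were 19.8 and 0.54% with 35 to 99 CpG. With 0 to 14 CpG a full CRE was found in 1 of 27 of the strongest group and 0 of 60 of the weakest.

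The 10 strongest members ranged from 69.69-fold to 96.84-fold. YIPF6, a membrane protein of the Golgi, led with 96.84-fold and 279 tags, and its summit lay at -66 bp, next to the cores shown above. CDADC1, a protein with a cytidine deaminase domain, had 90-fold and 284 tags. C1D, a cofactor of the nuclear RNA exosome, had 89.65-fold and 298 tags. All of these had a core in the promoter, and so did the rest of the 10. CCNH, the cyclin of the kinase complex that activates other cyclin-dependent kinases, had 87.37-fold and 227 tags. AASDH, aminoadipate-semialdehyde dehydrogenase by its RefSeq name, had 85.42-fold and 369 tags, and TFIP11, which helps take the spliceosome apart, had 85.15-fold and 230 tags. The remaining 4 were CENPW, a centromere protein (72.11-fold, 181 tags), METTL4, an RNA methyltransferase (72.03-fold, 474 tags), LARP7, an RNA-binding protein of the complex that restrains transcription elongation (70.53-fold, 221 tags), and COQ10B, a coenzyme Q-binding protein of mitochondria (69.69-fold, 440 tags, peak at chr2:197452699-197454264 of hg38). None of the 10 was among those with the most tags.

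The members with the most tags were long peaks of moderate fold enrichment. PIM3, a serine/threonine kinase, had 3300 tags in a peak of 28187 bp (chr22:49945809-49973995) at 9.44-fold, and PIGQ, an enzyme of glycosylphosphatidylinositol anchor synthesis, had 2479 tags over 27980 bp (chr16:542877-570856) at 6.63-fold. PUSL1 (1733 tags, 6.88-fold) and PHPT1 (1716 tags, 8.13-fold) were alike in this. HES4, a transcriptional repressor, differed in reaching 18.47-fold with 1733 tags over 5991 bp. Among the members 63 peaks exceeded 5 kb (1.43%), with a median of 5.50-fold and 729 tags. The weakest members, C1QL3 (3.00-fold, 264 tags), OPLAH (3.01-fold, 200 tags) and LCN8 (3.01-fold, 179 tags), stood at the lowest fold enrichment in the table.

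The end members were a different set in position and strength. Their summits lay a median of 591.5 bp inside the listed end (quartiles 391 and 754), and 175 peaks crossed that end (59.1%). The distances were not crowded at the end itself: 4 summits were within 50 bp of it and 181 were between 501 and 1000 bp. Some stood near a start after all. Of the 296 end members, 9 had the summit within 1000 bp of a reference start of their own gene, and 20 were that near to a start of another gene but not of their own, with a median of 6.74-fold and 258.5 tags. The 267 with no start that near had 5.92-fold and 75 tags, and 12 of them reached 10-fold (4.49%).

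Among the strongest end members several lay beside a neighbour's start. TMEM234, with 23.87-fold and 359 tags, had its summit 54 bp from a start of IQCC. The peak assigned to LOC107985946 had 14.91-fold and 544 tags and lay 118 bp from a start of UBXN4, a protein of endoplasmic reticulum-associated degradation. MYLPF, a myosin light chain of fast skeletal muscle, had 13.52-fold and 672 tags, 416 bp from a start of ZNF48. RTN2, a reticulon of the endoplasmic reticulum, had 15.93-fold and 104 tags, and the histone gene HIST1H3D had 14.02-fold and 64 tags, 136 bp from a reference start of its own.

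Neighbouring starts were also counted among the start members. The same share was not computed for all reference promoters or the upstream peaks, so it has no background here. Another gene's start lay within 1000 bp of the summit in 1018 of the 3095 (32.9%), on the opposite strand in 962. Their median fold enrichment was 9.12 with 255.5 tags, against 7.65 and 215 in the 2077 without one. The share with such a neighbour was 41.4% in the strongest fold-enrichment group and 24.7% in the weakest. Each such peak is assigned to 1 gene in the table. METTL4 is an example, as the start of NDC80, a kinetochore protein, lies on the other strand 82 bp from the summit. MRPL49, a mitochondrial ribosomal protein (38.08-fold), had its summit 134 bp from a start of FAU, a ribosomal protein gene on the other strand.

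Genes of the CREB and ATF family and its coactivators had a member in 9 of 21 cases (42.9%, interval 21.8 to 66.0), against 21.0% of all protein-coding genes. Of the 21, 20 had some listed peak. Among listed genes the share with a member was 45%, against 34.7% of protein-coding genes. The median fold enrichment of the 9 was 7.84, beside 7.61 for all protein-coding genes with a member. CREM (16.05-fold, 767 tags), CREB1 (15.48-fold, 602 tags) and CREB3, a membrane-bound relative (12.47-fold, 417 tags), reached 10-fold. They were 3 of the 9, beside 33.0% of all members assigned to protein-coding genes. BATF3 had 8.95-fold with 24 tags. None of the 7 with a reference promoter held a full CRE, and 2 held a core. Over all protein-coding promoters the shares were 2.26% for the full CRE and 27.9% for the core. The ATF1 peak of the ATF1 gene was intronic and is not a member.

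Of 25 widely cited CRE target genes, 3 had a member (12%, interval 2.55 to 31.2). The interval included the 21.0% of all protein-coding genes. Some listed peak was found for 22 of the 25, and for 12144 of all 20056 protein-coding genes. The 3 with a member were CREM, PPARGC1A, a metabolic coactivator (6.69-fold, 590 tags), and CCNA2, cyclin A2 (11.99-fold, 255 tags), whose full CRE is shown above. The peak of FOS (13.22-fold, 808 tags) was upstream and not a member.

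Genes of RNA handling and translation were counted in several lists, beside a share of 21.0% of all protein-coding genes. All members assigned to protein-coding genes had a median of 7.61-fold, and 33.0% of them reached 10-fold. Splicing had 14 of 35 genes (40.0%, interval 23.9 to 57.9), with a median of 14.8-fold and 11 at or above 10-fold. They included EFTUD2, a GTPase of the spliceosome (64.67-fold, 286 tags), MAGOH, of the exon junction complex (46.83-fold, 504 tags), and PRPF4 (39.86-fold, 247 tags). EFTUD2 had no core in its promoter and MAGOH had a full CRE. Ribosome biogenesis had 16 of 55 (29.1%, interval 17.6 to 42.9, median 10.7-fold), led by NOL10 (34.12-fold) and FBL, the nucleolar methyltransferase fibrillarin (23.04-fold). The mitochondrial ribosome had 29 of 74 (39.2%, interval 28.0 to 51.2, median 8.74-fold). The cytosolic ribosomal proteins had 17 of 77 (22.1%, interval 13.4 to 33.0, median 10.97-fold). The tRNA synthetases had 11 of 37 (29.7%, interval 15.9 to 47.0, median 8.64-fold). Examples were MRPL2 (28.83-fold), RPL18 (29.84-fold, 619 tags, with the CRE shown above), RPS13 (27.12-fold) and NARS, the asparagine enzyme (27.38-fold). The intervals of ribosome biogenesis, the cytosolic ribosomal proteins and the tRNA synthetases included the 21.0% of all protein-coding genes.

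Genes of energy, genome maintenance and protein turnover gave similar shares. Their medians stand beside 7.61-fold for all protein-coding genes with a member. Oxidative phosphorylation had 28 of 72 genes (38.9%, interval 27.6 to 51.1, median 10.2-fold), with NDUFB6 of complex I at 53.16-fold and SDHB of complex II at 21.68-fold. DNA repair had 21 of 64 (32.8%, interval 21.6 to 45.7, median 8.50-fold). FANCD2, of the Fanconi anaemia pathway, had 58.20-fold and 343 tags with 4 cores in its promoter, and RAD51C, a recombination factor, had 42.71-fold. ATM, the kinase that responds to strand breaks, had 34.01-fold with no core. The mitotic cell cycle had 17 of 48 (35.4%, interval 22.2 to 50.5, median 11.99-fold), among them TTK, a spindle checkpoint kinase (31.91-fold), and ORC5, of the origin recognition complex (28.69-fold). The proteasome had 11 of 39 (28.2%, median 11.9-fold), led by PSMB2 (27.80-fold). Counted among listed genes only, all protein-coding genes had a share of 34.7%, and the same share was highest for the histones (76.5%), followed by oxidative phosphorylation (57.1%), the mitochondrial ribosome (55.8%) and splicing (51.9%). It was 36.7% for the proteasome, 35.4% for the cytosolic ribosomal proteins, 20.8% for ER stress and chaperones and 13.6% for the CRE targets.

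Histone genes stood out by their few tags. Of 40 replication-dependent histone genes 13 had a member (32.5%, interval 18.6 to 49.1, against 21.0% of all protein-coding genes). Their median was 11.1-fold but 70 tags, beside 7.61-fold and 215 tags for all protein-coding genes with a member. HIST1H3B had 18.95-fold from 53 tags. Whether reads were split between related copies of these genes was not tested, so their values are uncertain. Genes of ER stress and chaperones had 5 of 28 members (17.9%, interval 6.06 to 36.9, median 7.52-fold). EIF2AK3, the ER stress kinase, was at 10.35-fold. Of the 28 genes, 24 had a listed peak, which was upstream in 13. Of all 20056 protein-coding genes, 12144 had a listed peak, which was upstream in 2361.

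Markers of the labelled cell type had a member about as often as other genes. Of 15 intestinal epithelium markers 3 had one (20%, against 21.0% of all protein-coding genes), the intestinal transcription factors CDX1 (5.92-fold, 42 tags) and CDX2 (5.13-fold, 528 tags) and the adhesion molecule EPCAM (4.46-fold, 347 tags), and 11 had some listed peak. No hepatocyte marker of 9 had a listed peak. The 9 lymphocyte and 9 neuron markers had no member, with 4 and 7 listed peaks, and 0 of 9 allows a share of up to 33.6% by the exact interval. Of 10 fibroblast and muscle markers MYOG (6.69-fold) and ACTA2 (4.05-fold) had a member. A peak table measures binding and not expression, so it does not check the cell type.

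**Figure D5:**
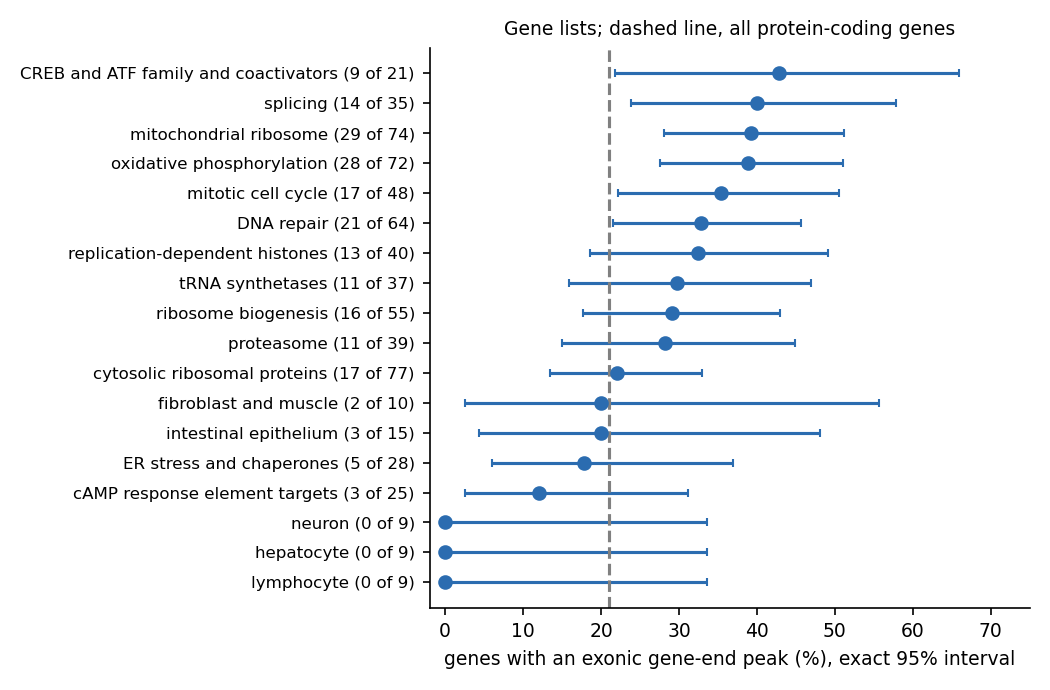
Share of the genes of each list that had an exonic gene-end peak, with exact 95% intervals and the counts beside each name. The dashed line marks all protein-coding genes (21.0%), and the shares run from 0 of 9 for 3 marker lists to 9 of 21 for the CREB and ATF family with its coactivators.

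Of the cancer genes chosen for naming, NRAS and BIRC2 were members. NRAS, a small GTPase of the RAS family, had 30.58-fold and 244 tags with the summit at -34 bp and no core in its promoter. BIRC2, an inhibitor of apoptosis, had 28.05-fold and 544 tags. BRAF was exonic but had its summit 90003 bp from the nearest listed end, with 8.58-fold and 25 tags.

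Some exonic peaks outside the limit stood at starts that the authors' gene model did not list. Of 1685 other exonic peaks with a reference promoter, 509 had the summit within 1000 bp of a reference start of their gene (30.2%). Their median was 7.06-fold and 212 tags, close to the 213 tags of the members, against 6.23-fold and 62 tags in the remaining 1176. Full CREs were found in 9 of the 509 (1.77%, interval 0.81 to 3.33) and 27 of the 1176 (2.30%, interval 1.52 to 3.32). All reference promoters had 1.85% and the start members 4.23%. The clearest case was RAD18, a ubiquitin ligase of post-replication repair, with 88.56-fold and 401 tags: its summit was 5770 bp from the listed start and -7 bp from a reference start. PCNA, the sliding clamp of DNA replication, had 19.11-fold and 537 tags at 5047 bp from the listed end and -42 bp from a reference start.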

How the data were processed

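One ATF1 ChIP peak table was analysed, and the input library was not analysed here. The submitters' processing notes name CASAVA, Bowtie2 and bedtools, with hg38 as the build. The peak caller, its control and its settings were not given in the sources used here. The deposited tags are whole-number counts per peak, per the file headers. Fold enrichment was deposited as a ratio to an unstated background (lowest value 3), and the deposited score has no stated definition (lowest value 50). The library total is unknown, so tags were not scaled to depth. 1 line without a position was left out.

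Members were the peaks classed as exonic with the summit within 1000 bp of a listed gene end. Symbols were matched to RefSeq genes (GRCh38.p14, which is hg38), for 4096 members directly and 218 through older names. Strand and sequence came from 35116 RefSeq promoters, using for each gene the promoter nearest the summit, for 3496 members. The 149 members on chromosome 8 were not analysed for strand or sequence, so they enter no start, end or motif result. Motifs were counted on both strands, and the search was tested on simulated promoters. Shares have exact (Clopper-Pearson) 95% intervals and medians have intervals from order statistics. With 1 library nothing could be tested between conditions. Intervals reflect only the number and spread of the peaks or genes, and peaks of a library are not independent samples.

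The members and the 18 gene lists were chosen with earlier results of these data known. Named genes were the 10 strongest members, those with the most tags, the weakest, the widest, the 5 strongest at gene ends, the neighbours of the limit, up to 4 strongest of each list, and 11 preset genes. AP2B1 and ZNF614 and the genes of the last observations were chosen after their values were seen. Alternatives changed the window, the summit, the strength limit, the gene length and the motif. Scripts ran in Python 3.11.15 with scipy 1.17.1, pandas 2.3.3, numpy 2.4.6 and matplotlib 3.10.9.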

Additional observations from a re-analysis of the deposited data

How the results depend on the processing

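No paired analysis was possible because there was 1 library with no replicate. The share of exonic peaks that were members, 67.0%, was 55.8% with a 500 bp window and 76.0% with 2000 bp, 65.6% by peak midpoint, and 64.0% in genes over 10 kb. It was 69.3% at 5-fold or more, 73.9% among peaks at or above the median fold enrichment of all listed peaks and 82.3% at or above the median score. The ratio of members to other exonic peaks, 1.20 for the median fold enrichment, was 1.14 with a 2000 bp window, 2.45 for tags, 2.20 for tags per kb and 2.57 for score. The share nearer the start, 91.0%, was 92.8% in genes over 10 kb, 95.6% with a 500 bp window and 94.2% at or above the median fold enrichment. The share of members with a full CRE, 3.89%, was 38.4% for TGACG, 12.7% for TGACGT, 4.76% with the summit within 250 bp of the start and 6.21% at or above the median fold enrichment. In alternatives chosen after seeing the data it was 5.26% at or above the median score and 5.27% at or above the median number of tags. Of 663 list genes 197 had a member, and 469 had some listed peak. Depth limits are unknown, as the library total is not given, and without an input table the fold enrichment could not be recomputed. The promoter table covers 300 bases per start, so a CRE outside that window was not counted.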

Other observations

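Among all 8-base words in the promoters of the start members, each counted with its reverse complement, the full CRE TGACGTCA differed most between the strongest group by fold enrichment and the rest. It was found in 91 of 619 promoters of the strongest group (14.7%) and 40 of 2476 others (1.62%), and ranked 1 of 32773 words. The word ranked next, GACGTCAC, overlaps it (13.7 and 2.02%), and 13 of the first 20 words held the core TGACG. Among those without it were CACTTCCG, which holds an ETS-type GGAA on the other strand (14.7 and 8.68%), and ATGGCGGC (10.8 and 6.22%). These words were ranked on the values that define the groups, so their order is a description.

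A run of GGAAG, an ETS-type site, directly followed by the core TGACG was counted on both strands after it was seen in the ranking. It occurred in 71 start members (2.29%) and 0.75% of all promoters. The share was 5.65% in the strongest group and 0.32% in the weakest. The run contains the core and was picked from words ranked on these groups, so these shares only describe it.

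Match and strength parted in single genes, chosen after their values were seen. The strongest start members without a core in the promoter after EFTUD2 were TRMT5, a tRNA methyltransferase (56.31-fold), SPTY2D1, a chromatin protein (54.26-fold), and LZIC (49.90-fold). The summit of TRMT5 lay 612 bp from the reference start, outside the promoter that was searched, and 167 bp from a start of SLC38A6. The sequence under that summit was thus not searched. The weakest with a full CRE were NOL4 (3.66-fold, summit 310 bp from the start), ZNF547 (3.87-fold), SLC18A2, the neuronal vesicular monoamine transporter (4.46-fold), GAPDHS, the sperm form of a glycolytic enzyme (4.57-fold), and HHIP, a hedgehog-binding protein (5.25-fold). Start members with 2 full CREs were AP2B1, of the clathrin adaptor (49.18-fold), and HAUS5, of the augmin complex (31.14-fold). PDE4A, a cAMP phosphodiesterase, held 7 cores and had 9.33-fold.

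Seen from the sequence, 475 protein-coding genes had a full CRE in a reference promoter. Of these 148 had an exonic gene-end peak (31.2%) and 362 some listed peak (76.2%), against 21.6 and 61.7% of the 15368 protein-coding genes without one. A listed peak of at least 10-fold was found for 49.3% of the genes with a full CRE and 15.2% of those without.

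On the X chromosome the 145 members had a median of 102 tags but 8.55-fold, the highest median fold enrichment of any chromosome. Chromosome 14 (8.50-fold, n = 127) and chromosome 11 (8.40-fold, n = 263) were close to it. On chromosome 21 the median was lowest, at 6.26-fold, in 34 members. No intervals were computed for these medians.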
